A study of Homo sapiens with 6 samples.

Results

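Oxidative phosphorylation subunits are the proteins of respiratory complexes I, III and IV and of ATP synthase (complex V), and their transcripts were compared between TOP3B knockout and wild-type HT1080 cells. The members were the genes whose whole symbol has the form of a subunit name, that is NDUFA, NDUFB, NDUFC, NDUFS or NDUFV and a number, COX4 to COX8 with an optional letter A to C and number, or UQCR or ATP5 and a suffix, together with the mitochondrially encoded subunit genes. Longer symbols such as COX4I1, COX7A2L, NDUFAB1 and those of the NDUFAF assembly factors fall outside this form, and 64 pseudogenes were left out. This gave 86 of 35819 genes, of which 73 are nuclear and 13 are encoded in mitochondrial DNA. By symbol the nuclear members comprised 34 of complex I, 8 of complex III, 12 of complex IV and 19 of complex V, and the mitochondrial ones 7, 1, 3 and 2. NDUFA4, counted here with complex I by its symbol, encodes a protein now assigned to complex IV, and ATP5IF1 encodes an inhibitor of ATP synthase and not a subunit.

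HT1080 is a human fibrosarcoma cell line. The knockout group (TOP3B_KO) consisted of 3 libraries of a single line, E2-2, made with CRISPR and a guide against exon 2 of TOP3B, the gene for topoisomerase III-beta. The wild-type group (WT) consisted of 3 libraries of unedited HT1080 cells. With a single edited line, the loss of TOP3B and other differences between that line and the unedited cells cannot be told apart. Both groups were grown in the same medium, and total RNA depleted of ribosomal RNA was sequenced. The design text names HCT116 where it describes the wild-type cells, whereas the sample labels give HT1080.

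Respiratory complexes I, III and IV pass electrons to oxygen and pump protons across the inner mitochondrial membrane, and complex V uses the proton gradient to make ATP. Each of these complexes joins subunits from nuclear genes, whose mRNAs are translated in the cytosol, with subunits translated inside the organelle. The mitochondrial mRNAs are cut out of long transcripts that run around nearly the whole of a small circular genome, so neighbouring mRNAs begin as one RNA. The widely expressed subunits are made in nearly all cell types, and some have further isoforms known from muscle or testis.

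The 6 libraries held between 17919106 and 20475280 estimated counts, and a count of 3, taken as the floor of detection, was worth 0.147 to 0.167 CPM when scaled by the library total alone. All other CPM values are counts scaled by the library total after TMM adjustment for composition. TOP3B itself had 407, 383 and 361 counts in knockout libraries 1 to 3, against 536, 376 and 469 counts in WT libraries 1 to 3, and the groups overlapped, so these counts do not check the edit. TOP3A, the paralog known to act on mitochondrial DNA, had 134, 148 and 95.5 CPM in knockout libraries and 111, 125 and 115 CPM in WT libraries, also overlapping. Of 6 mesenchymal markers, VIM, FN1 and SPARC stood at 2463 CPM or more in every library and ZEB1 at 103 CPM or more, while CDH2 ran between 1.11 and 20.3 CPM and TWIST1 between 1.28 and 2.80 CPM. FN1 and SPARC were called lower in the knockout, 3.70-fold and 1.66-fold (edgeR adjusted p = 0.00214 and 0.00371). Of 6 epithelial markers, EPCAM, VIL1, CDX2 and KRT20 had at most 6 counts in any library, and CDH1 and LGALS4 had 27 to 48 and 22 to 61 counts. The part of these markers in the results was not tested. Knockout replicate 3 stood apart from the other libraries, also for the genes described here, and results that rest on it are given with and without it. Since no label speaks of separate cultures, the p-values reflect how far these libraries spread, and that spread may be technical. In bulk RNA, fewer expressing cells and less RNA per cell cannot be told apart.

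For most oxidative phosphorylation genes no difference between the groups beyond the spread between replicates was detected. ATP5MK, a small membrane subunit of ATP synthase that helps its dimers form, fell 1.53-fold in the knockout. ATP5F1A, the alpha subunit of the catalytic head, fell 1.21-fold. No other nuclear member and none of the mitochondrial mRNAs passed the test. Of 82 members that passed the filter on low counts, 2 were called (edgeR quasi-likelihood F test with Benjamini-Hochberg adjustment over 13965 genes, adjusted p under 0.05), or 2.44%, and both were lower. Across all genes tested 7.84% were called, 3.21% as higher and 4.63% as lower. The calls of nuclear members numbered 2 of 69, with 15 at an unadjusted p under 0.05. The mitochondrial calls numbered 0 of 13, with 2 at an unadjusted p under 0.05, and DESeq2 called 1 of the 13. Of all 13965 genes tested, 3452 had an unadjusted edgeR p under 0.05, which is the background for such counts here and below. The median log2 fold change was 0.01 for the nuclear members, -0.07 for the mitochondrial members and 0.05 for all genes tested.

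Summed within each library, the 2 genomes behaved differently across the knockout replicates. The 13 mitochondrial mRNAs summed to 100162, 87864 and 53762 CPM in knockout libraries 1 to 3, against 84191, 85036 and 85592 CPM in WT libraries 1 to 3. The WT sums lay within a narrow band, with knockout replicates 1 and 2 above it and replicate 3 well below it. As a share of all counts, the mitochondrial mRNAs took 10.0%, 8.81% and 5.68% in the knockout and 8.26%, 8.22% and 8.51% in WT. The difference in the log2 sum was -0.12 (exact two-sided permutation test over libraries, p = 1.0, where the smallest p that 3 against 3 allows is 0.1), and it was 0.14 without knockout replicate 3.

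The nuclear members summed to 4951, 4997 and 5376 CPM in the knockout, against 5609, 5788 and 5521 CPM in WT. On this scale all 3 knockout sums lay below all 3 WT sums, a difference of -0.14 in log2 with an exact permutation p of 0.1, the smallest possible. The separation depended on the scaling. As a share of all counts the nuclear members took 0.495%, 0.501% and 0.568% in the knockout and 0.550%, 0.560% and 0.549% in WT, with knockout replicate 3 the highest of the 6 libraries (exact permutation p = 0.4). In RPKM (reads scaled by gene length and library size) they summed to 837, 851 and 1066 in the knockout and 956, 956 and 928 in WT, which also overlapped (exact permutation p = 0.8). The sum is set by a few abundant genes. ATP5F1A alone took 22.0%, 22.6% and 21.5% of the nuclear member counts in the knockout and 23.7%, 24.1% and 24.8% in WT, and without it the groups overlapped (difference -0.10, exact permutation p = 0.2). Of the complexes, the nuclear part of complex V was lower in every knockout library in CPM, at 2483, 2574 and 2870 CPM against 2969, 3146 and 3027 CPM in WT. As a share of all counts it was 0.248%, 0.258% and 0.303% in the knockout and 0.291%, 0.304% and 0.301% in WT, where replicate 3 lay within the WT range. The nuclear sums of complexes I, III and IV overlapped between the groups on both scales.

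The ratio of mitochondrial to nuclear counts, which no library scaling can change, was 20.2, 17.6 and 10.0 in the knockout and 15.0, 14.7 and 15.5 in WT. Knockout replicates 1 and 2 lay above the WT range and replicate 3 below it, and the groups overlapped (log2 difference 0.02, exact permutation p = 1.0, and 0.32 without knockout replicate 3). In each complex, knockout replicate 3 had the lowest ratio of the 6 libraries. The ratio was 26.8, 23.2 and 14.0 for complex I in the knockout, against 20.9, 19.9 and 21.0 in WT. For complex IV it was 111, 102 and 76.7 in the knockout, against 104, 105 and 115 in WT. For complex III the knockout ratio ran between 4.47 and 10.0, against 6.77 to 7.32 in WT, and for complex V between 2.71 and 5.52, against 3.97 to 4.46 in WT.

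**Figure D1:**
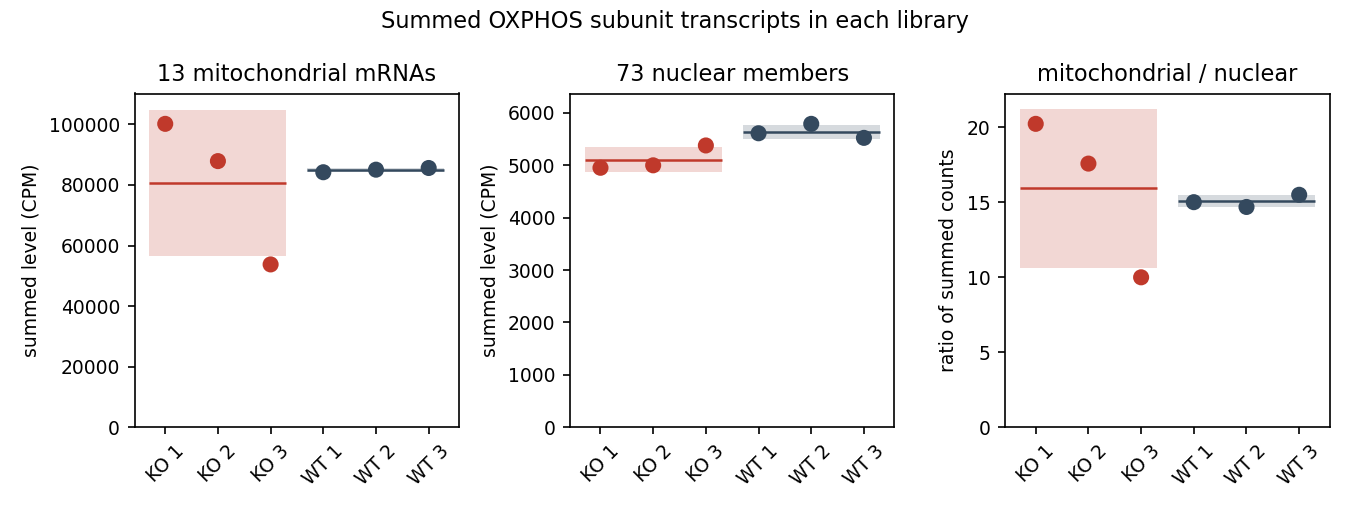
Summed levels in each knockout (KO) and WT library, in CPM for the 13 mitochondrial mRNAs and for the 73 nuclear members, and as the ratio of mitochondrial to nuclear counts. Points are libraries, lines are group means and shaded bands are ± 1 SD (n = 3). Knockout replicate 3 lies lowest in the mitochondrial panel at 53762 CPM, while the 3 nuclear sums of the knockout all lie below those of WT on this scale, and as a share of all counts they overlap with replicate 3 the highest at 0.568%.

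In RPKM, the median of the mitochondrial transcripts exceeded that of the nuclear ones by about 3 orders of magnitude. The median mitochondrial RPKM was 7586, 6372 and 4119 in the knockout and 5929, 5732 and 6027 in WT. The median nuclear RPKM was 3.45, 3.22 and 3.78 in the knockout and 3.13, 3.06 and 2.80 in WT. The nuclear medians, which fall on different genes in different libraries, lay higher in all knockout libraries, while the mitochondrial ones overlapped. The length behind these values bears on the comparison. All 13 mitochondrial genes had an implied length within 2 bp of the gene, whereas for nuclear genes it followed the genomic span with introns, and was a median of 2.43 times the exonic length. With counts per exonic kilobase in place of RPKM, the ratio of the mitochondrial to the nuclear median was 988, 823 and 474 in the knockout and 856, 876 and 861 in WT. The exonic length joins the exons of all annotated transcripts of a gene, so it can exceed the length of any single mRNA. Both scales can therefore overstate the gap between the genomes.

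**Figure D2:**
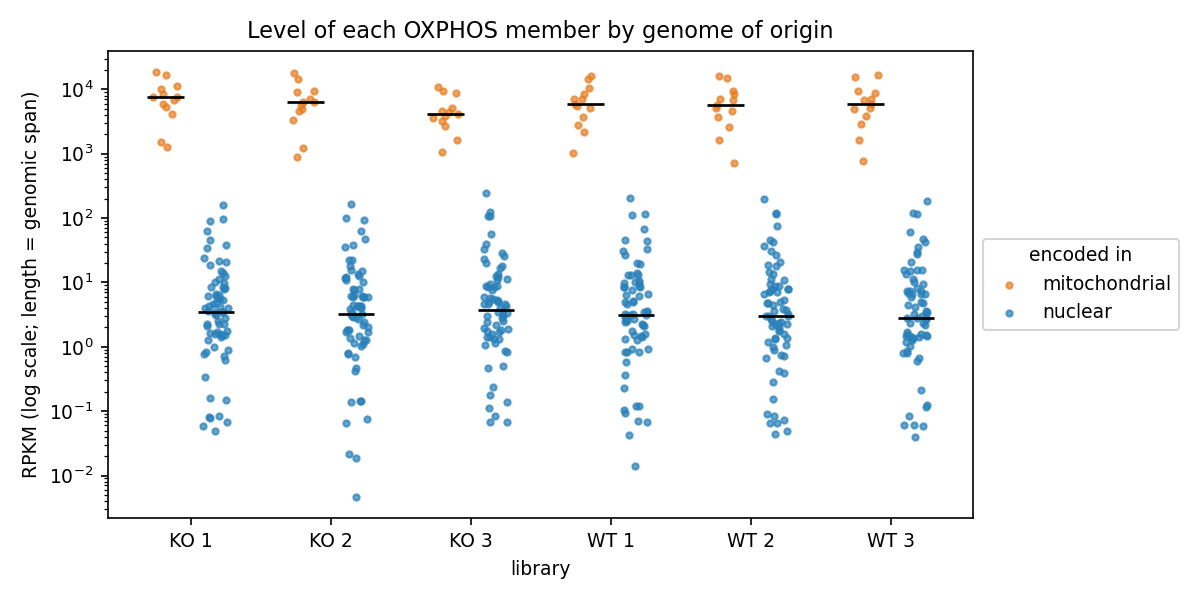
RPKM of each member in each knockout (KO) and WT library on a log axis, with mitochondrial members in orange, nuclear members in blue and a bar at the median of each. Members at 0 are not drawn. The nuclear members of 1 library span over 3 orders of magnitude, and the mitochondrial members lie above all of them in each library.

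The mitochondrial mRNAs stood in a similar order of level per length in both groups. MT-CO1, the catalytic core of complex IV, was highest at 15695 ± 4252 RPKM in the knockout and 15924 ± 1166 RPKM in WT (SD, n = 3 each). MT-ATP6, the proton channel subunit of complex V, followed at 13593 ± 3728 RPKM in the knockout and 15536 ± 546 RPKM in WT. Below them came MT-ATP8, MT-CO3, MT-ND2, MT-CO2, MT-ND4, MT-ND1, MT-CYB and MT-ND5, between 4260 and 9905 RPKM in the knockout and between 3738 and 9674 RPKM in WT, and MT-CO2 stood just above MT-ND2 in WT. Each of these mRNAs differed from its neighbour in the order by less than the larger SD of the pair among knockout libraries. That SD includes the lower level of these mRNAs in knockout replicate 3, so it does not measure the order within a library. In each of the 6 libraries MT-ATP8 stood above MT-CO3 and MT-CO3 above MT-ND2, whereas MT-ND2 and MT-CO2 changed places between libraries. MT-ND4L at 3687 ± 397 RPKM in the knockout and 2763 ± 120 RPKM in WT, MT-ND6 at 1456 ± 211 and 1824 ± 330 RPKM, and MT-ND3 at 1066 ± 186 and 838 ± 162 RPKM were the lowest.

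Among the 7 mitochondrial subunits of complex I, the membrane subunits through which protons are pumped, MT-ND4L had 1222, 994 and 997 CPM in the knockout, against 833, 809 and 859 CPM in WT. It was higher in 3 of 3 knockout libraries than in any WT library, but its log2 fold change, 0.36 ± 0.10 (SE), was short of the threshold (edgeR quasi-likelihood F test, adjusted p = 0.077). It passed without knockout replicate 3, with an adjusted p of 0.036, and in DESeq2, with an adjusted p of 0.037. MT-ND5 had 9788, 8358 and 4696 CPM in the knockout, against 6810, 6887 and 7006 CPM in WT. It lay above WT in knockout replicates 1 and 2 and below it in replicate 3. Its log2 fold change was 0.14 ± 0.24 (SE, edgeR adjusted p = 0.751), and 0.39 with an adjusted p of 0.016 without replicate 3.

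MT-ND6, the only mRNA of the light strand, had 798, 637 and 805 CPM in the knockout, against 1178, 881 and 865 CPM in WT. All knockout libraries lay below all WT libraries in CPM, with a log2 fold change of -0.38 ± 0.15 (SE, edgeR adjusted p = 0.180). As a share of the 13 mRNAs, given below, the groups overlapped for MT-ND6. Whether counting used strand is not given, so the MT-ND6 counts may include RNA of the other strand. MT-ND1 had 6485, 5360 and 4016 CPM in the knockout and 5432, 5017 and 4994 CPM in WT. MT-ND2 had 8673, 7453 and 4463 CPM in the knockout and 7468, 7355 and 7163 CPM in WT. MT-ND4 had 10440, 8748 and 5066 CPM in the knockout and 8320, 8160 and 8349 CPM in WT. For these the knockout libraries lay on both sides of WT. MT-ND3 had 432, 303 and 348 CPM in the knockout and 360, 261 and 264 CPM in WT, which overlapped. Of the 13 mRNAs, 2 did not overlap between the groups (15.4%), MT-ND4L and MT-ND6, against 33.6% of all genes tested.

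MT-CYB, the cytochrome b of complex III, had 6810, 5636 and 3416 CPM in the knockout, against 5921, 5470 and 5588 CPM in WT. Knockout replicates 1 and 3 lay outside the WT range on opposite sides. The complex IV core subunit MT-CO1 had 28683, 27106 and 15764 CPM in the knockout, against 22975, 25895 and 26181 CPM in WT. MT-CO2, which takes electrons from cytochrome c, had 5186, 4392 and 2660 CPM in the knockout, against 4895, 4960 and 4827 CPM in WT. MT-CO3 followed with 7925, 7022 and 3745 CPM in the knockout, against 6755, 6849 and 6831 CPM in WT. In each of these 4 mRNAs replicate 3 was the lowest of the 6 libraries. Their log2 fold changes lay between -0.26 and -0.07 and none passed (edgeR adjusted p 0.505 or more).

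Both complex V mRNAs of the mitochondrial genome are read from a single bicistronic RNA in which the coding sequences overlap, as do those of MT-ND4L and MT-ND4. The overlaps are shown because reads from them cannot be assigned to 1 gene, with the shared bases in capitals (GRCh38, plus strand). The first pair spans chrM:8515-8584, with 46 shared bases, or 22.2% of MT-ATP8, and the second spans chrM:10748-10778, with 7 shared bases.
MT-ATP8 and MT-ATP6: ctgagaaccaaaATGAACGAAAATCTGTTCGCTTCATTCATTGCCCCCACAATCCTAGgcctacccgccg
MT-ND4L and MT-ND4: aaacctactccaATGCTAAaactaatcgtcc

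MT-ATP6 had 11360, 9897 and 6087 CPM in the knockout, against 11073, 10492 and 10743 CPM in WT. MT-ATP8 had 2361, 1958 and 1697 CPM in the knockout, against 2173, 1999 and 1924 CPM in WT. Neither passed, with log2 fold changes of -0.24 ± 0.21 and -0.02 ± 0.13 (SE, edgeR adjusted p = 0.519 and 0.942). Because both come from 1 RNA, their ratio was also taken. MT-ATP8 over MT-ATP6 in RPKM was 0.686, 0.653 and 0.921 in the knockout and 0.648, 0.629 and 0.591 in WT. MT-ND4L over MT-ND4 was 0.545, 0.528 and 0.916 in the knockout and 0.465, 0.461 and 0.479 in WT. In both pairs every knockout library had the higher ratio of the short gene to its longer partner, replicate 3 by the most, and each difference had an exact permutation p of 0.1, the smallest possible. The first pair barely separated, at 0.653 in knockout replicate 2 against 0.648 in WT replicate 1. The log2 differences were 0.26 and 0.45, and 0.11 and 0.20 without knockout replicate 3.

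**Figure D3:**
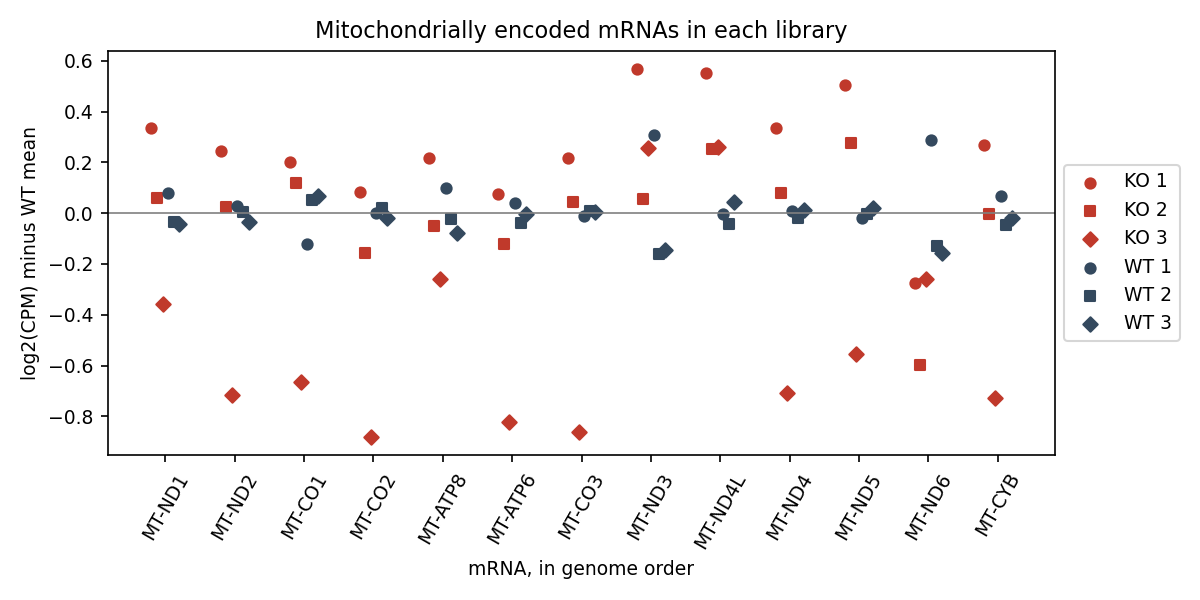
Level of each mitochondrial mRNA in the 3 knockout (KO, red) and 3 WT (dark) libraries as log2 CPM minus the WT mean, in genome order. Knockout replicate 3 (red diamonds) lies below 0 for 11 of the 13 mRNAs and above 0 for MT-ND3 and MT-ND4L.

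Knockout replicate 3 departed from WT by a median of -0.66 on the log2 scale over the 13 mRNAs, against 0.24 and 0.04 in knockout replicates 1 and 2. The departure was uneven. In replicate 3 the genes of 207 to 525 bases moved least, at 0.26 for MT-ND3 and MT-ND4L and -0.26 for MT-ATP8 and MT-ND6. MT-ND1, of 956 bases, stood at -0.36. The other 8, of 681 to 1812 bases, stood between -0.88 and -0.56. These are lengths of genes and not of RNA molecules. MT-ATP8 shares 1 RNA with MT-ATP6, which stood at -0.82, and MT-ND4L overlaps MT-ND4, which stood at -0.71. Over the nuclear members the median departure of replicate 3 was 0.14, with 42 of 69 above the WT mean. What set replicate 3 apart was not tested.

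The composition of the mitochondrial mRNA pool can be compared without the total. MT-ND5 took 9.77%, 9.51% and 8.73% of the counts of the 13 mRNAs in the knockout, against 8.09%, 8.10% and 8.19% in WT. MT-ND4L took 1.22%, 1.13% and 1.86% in the knockout, against 0.989%, 0.952% and 1.00% in WT. Both shares were higher in 3 of 3 knockout libraries, replicate 3 included. MT-CO2 took 5.18%, 5.00% and 4.95% in the knockout, against 5.81%, 5.83% and 5.64% in WT. MT-ATP6 took 11.3% in each knockout library, against 13.2%, 12.3% and 12.6% in WT. Both were lower in 3 of 3. Each of these 4 shares had an exact two-sided permutation p of 0.1, the smallest possible, and a Benjamini-Hochberg adjusted p of 0.325 over the 13 shares, so none passes. MT-CO1 took 28.6%, 30.8% and 29.3% in the knockout and 27.3%, 30.5% and 30.6% in WT, with no separation. MT-ND6 took 0.797%, 0.725% and 1.50% in the knockout and 1.40%, 1.04% and 1.01% in WT, with knockout replicates 1 and 2 below the WT range and replicate 3 above it. Nuclear copies of mitochondrial genes share reads with these mRNAs, which makes the split between them uncertain. The copies summed to 1841, 1612 and 1785 CPM in the knockout and 1672, 1698 and 1548 CPM in WT, most of it MTATP6P1, a nuclear copy on chromosome 1.

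**Figure D4:**
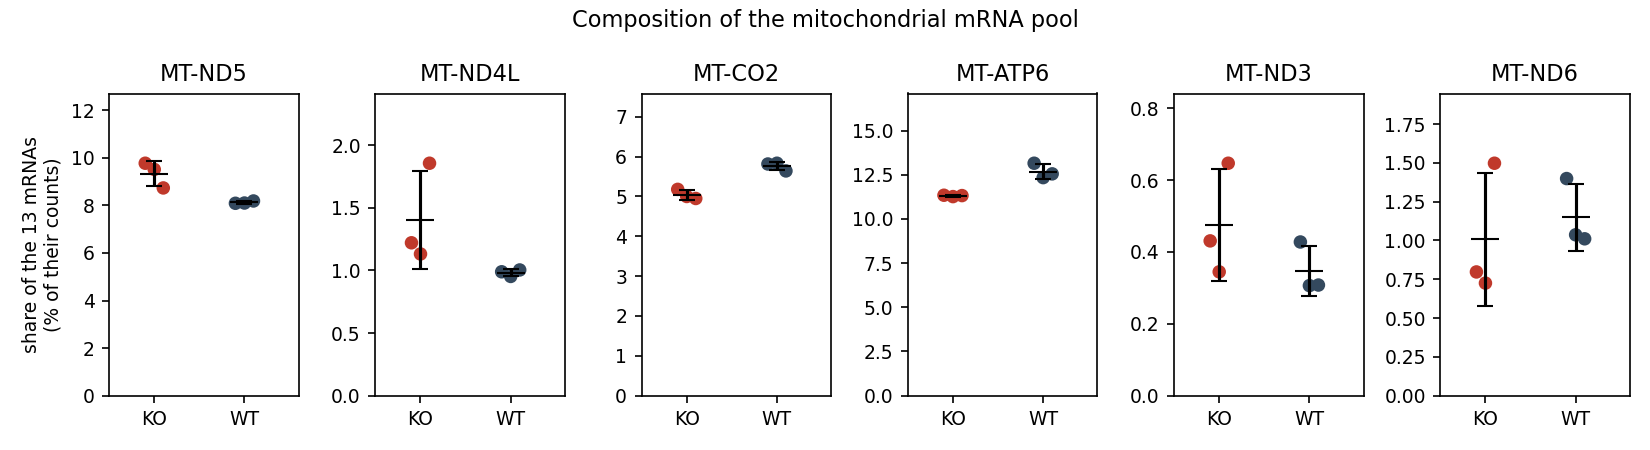
Share of the counts of the 13 mitochondrial mRNAs taken by MT-ND5, MT-ND4L, MT-CO2, MT-ATP6, MT-ND3 and MT-ND6 in knockout (KO) and WT libraries, in percent. Points are libraries, and bars are the mean ± SD (n = 3). The first 4 genes show groups that do not overlap, with knockout shares higher for MT-ND5 and MT-ND4L and lower for MT-CO2 and MT-ATP6. Of all genes tested, 33.6% had groups that do not overlap in CPM.

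Of the 73 nuclear members, 69 passed the filter on low counts. COX6A2, COX7A1 and COX7B2, isoforms known from heart and skeletal muscle or from testis, had 0 counts in all 6 libraries. NDUFB7, an accessory subunit of the complex I membrane arm, had 6, 3 and 0 counts in the knockout and 2, 6 and 8 counts in WT. Levels of subunits that sit in 1 complex in fixed numbers differed widely in these tables. ATP5F1A stood at 101 ± 5.93 RPKM in the knockout and 117 ± 2.60 RPKM in WT (SD, n = 3 each), while ATP5F1B, its partner in the catalytic head, stood at 16.6 ± 10.7 RPKM in the knockout and 15.6 ± 2.55 RPKM in WT. Whether the counting captured each gene to the same extent was not tested, so a low value need not mean a low transcript level.

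In complex I, 0 of 33 tested nuclear subunits were called, with 7 at an unadjusted p under 0.05 and DESeq2 calling 5, and the median log2 fold change was 0.07 (20 positive, 13 negative). NDUFS1, the large iron-sulfur subunit of the electron input module and the most abundant by CPM, had 277, 283 and 223 CPM in the knockout and 303, 328 and 311 CPM in WT. NDUFB5, a membrane arm subunit, had 190, 181 and 179 CPM in the knockout and 203, 231 and 228 CPM in WT. Both lay lower in every knockout library without passing, each at a log2 fold change of -0.27 (edgeR adjusted p = 0.195 and 0.121). NDUFC1, a small membrane arm subunit, had the smallest adjusted p among the nuclear complex I genes, at 28.0 ± 0.89 CPM in the knockout and 38.5 ± 3.93 CPM in WT (SD, n = 3, edgeR adjusted p = 0.079).

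Complex III had 0 of 8 called, with 2 at an unadjusted p under 0.05 and DESeq2 calling 2. Across all libraries all 8 log2 fold changes were negative, with a median of -0.16, where 6466 of all 13965 genes tested were negative. CYC1, a complex III subunit outside the symbol rule, had a log2 fold change of 0.18 in DESeq2. In edgeR it ran between -0.28 and 0.43 with a library left out. UQCRC2 turned to 0.02 with upper-quartile scaling, to 0.04 with library size alone and to at most 0.02 with a library left out. UQCRHL, with 0 to 12 counts per library, ran between -0.80 and 0.27 with a library left out, so its sign carries little weight. UQCR10, a small membrane subunit, had 69.4, 63.2 and 53.6 CPM in the knockout and 91.0, 91.5 and 85.4 CPM in WT. The libraries did not overlap, and its log2 fold change, -0.52 ± 0.12 (SE), lay just outside the threshold (edgeR adjusted p = 0.051). UQCRQ, which contacts cytochrome b, had 187, 195 and 271 CPM in the knockout and 247, 240 and 219 CPM in WT. UQCRB, a subunit at the ubiquinone site, had 190, 190 and 192 CPM in the knockout and 238, 221 and 215 CPM in WT. UQCRB was lower in 3 of 3 knockout libraries (log2 fold change -0.24 ± 0.08 SE, edgeR adjusted p = 0.128), whereas replicate 3 was the highest of all libraries for UQCRQ. The core protein UQCRC2 had a log2 fold change of -0.01 ± 0.09 (SE).

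In complex IV, 0 of 9 tested nuclear subunits were called, with 1 at an unadjusted p under 0.05 and DESeq2 calling 1, and the median log2 fold change was 0.29. COX5A, a matrix-side subunit, had 198, 207 and 146 CPM in the knockout and 181, 195 and 175 CPM in WT. COX7C, a small membrane subunit, had 62.0, 62.7 and 36.2 CPM in the knockout and 55.0, 61.4 and 58.8 CPM in WT. In both, replicate 3 was the lowest library and replicates 1 and 2 lay above every WT library. COX6C gave the smallest adjusted p of the complex, at 61.2 ± 3.26 CPM in the knockout and 48.3 ± 1.46 CPM in WT (SD, n = 3, edgeR adjusted p = 0.102).

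For 3 of the 4 complex IV subunits with tissue isoforms among the members, the widely expressed form had counts and the tissue form had 0, and for COX6B both forms had counts. COX6A1 had 8.80, 10.3 and 11.4 CPM in the knockout and 8.65, 7.14 and 8.99 CPM in WT, against 0 for the muscle form COX6A2. COX7A2 had 9.93, 7.95 and 5.16 CPM in the knockout and 13.8, 12.9 and 9.83 CPM in WT, against 0 for the muscle form COX7A1. COX7B had 23.2, 23.3 and 15.8 CPM in the knockout and 18.8, 26.9 and 17.9 CPM in WT, against 0 for COX7B2. A count of 0 allows up to 0.167 CPM in the shallowest library when scaled by the library total alone, by counting error only. COX6B1 was low, at 1.28, 1.26 and 1.89 CPM in the knockout and 1.08, 0.81 and 0.74 CPM in WT, as was its testis form COX6B2, at 1.97, 1.06 and 1.23 CPM in the knockout and 0.63, 0.25 and 2.06 CPM in WT. None of these isoforms passed, and their groups overlapped except for COX6B1, which was higher in 3 of 3 knockout libraries (edgeR adjusted p = 0.262).

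**Figure D5:**
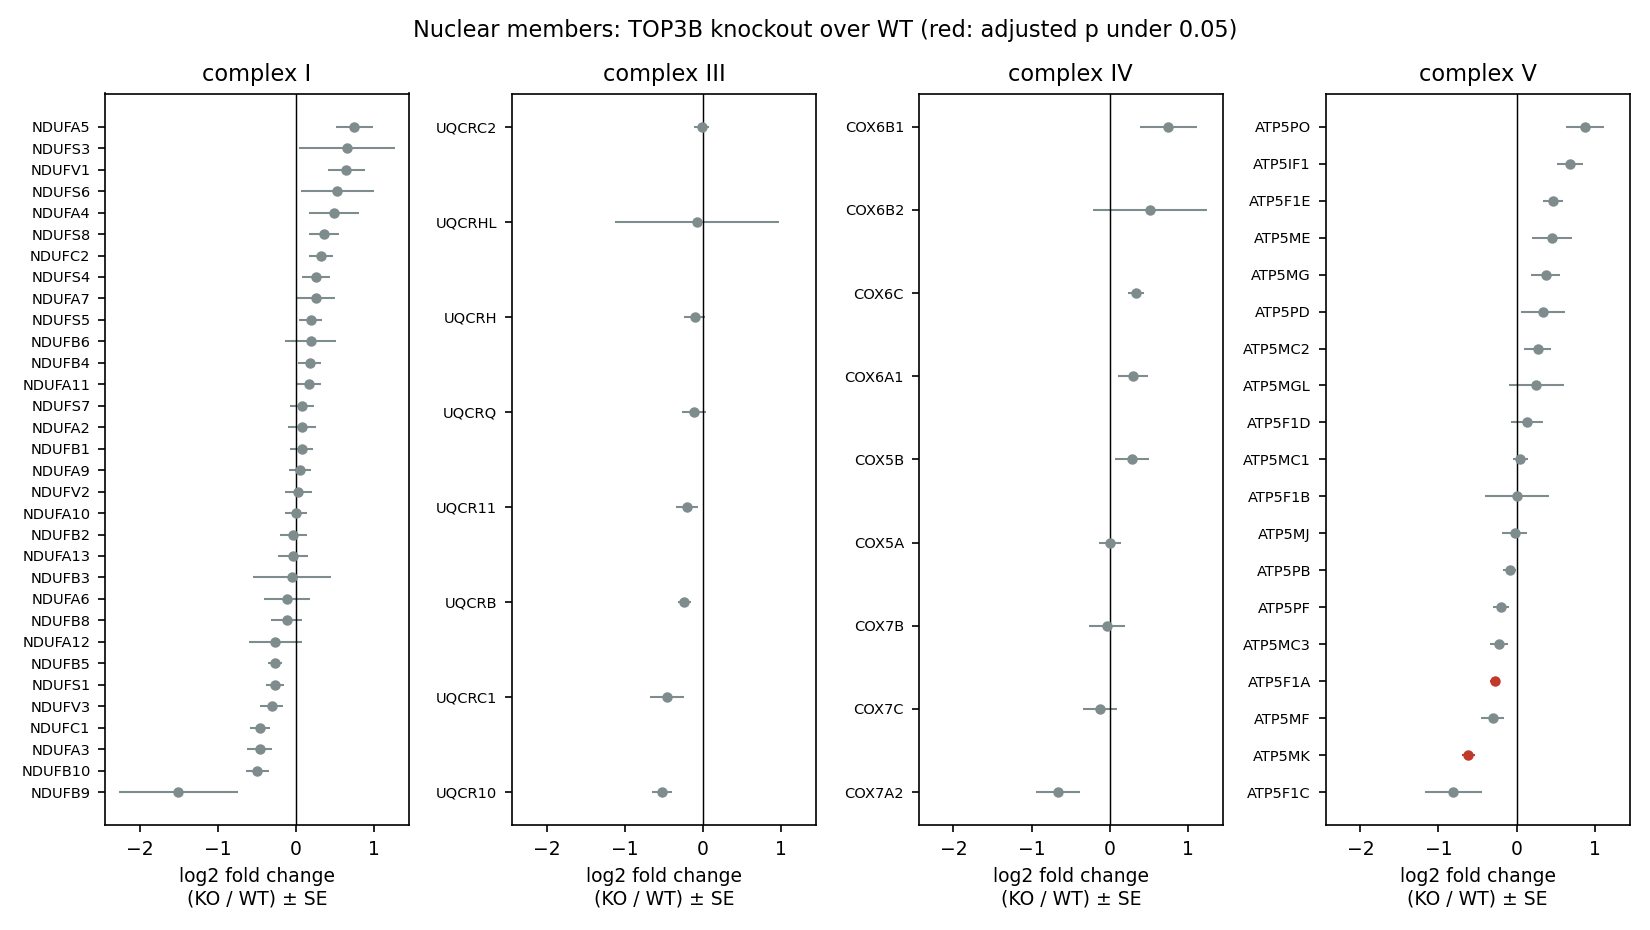
Log2 fold change, knockout (KO) over WT, with its standard error for the tested nuclear members by complex, sorted within each panel, with 1 complex I member not drawn. Red marks the 2 members with an adjusted p under 0.05, ATP5MK and ATP5F1A. All 8 complex III members lie at or left of 0, where UQCRC2 alone moves to the right of it (0.04) with library size alone. CYC1, a complex III subunit outside the symbol rule, is not drawn (0.18 in DESeq2). With a library left out, UQCRC2 and UQCRHL reach 0.02 and 0.27.

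Complex V held both calls among its 19 nuclear members, all of them tested. ATP5MK had 135, 130 and 126 CPM in the knockout, against 198, 201 and 200 CPM in WT. The knockout libraries all lay far below the WT libraries, and the log2 fold change was -0.62 ± 0.08 (SE, edgeR quasi-likelihood F test, adjusted p = 0.00845). It passed in 4 of the 6 fits that each left out 1 library, with an adjusted p of 0.0603 without WT replicate 2 and 0.0521 without WT replicate 3. ATP5F1A, the most abundant nuclear member by CPM, had 1091, 1129 and 1157 CPM in the knockout, against 1330, 1395 and 1370 CPM in WT. It was lower in 3 of 3 knockout libraries, with a log2 fold change of -0.28 ± 0.06 (SE, edgeR adjusted p = 0.0474). The call was marginal. It passed in 1 of the 6 fits with a library left out, the one without knockout replicate 3 (adjusted p = 0.00829), and failed in the other 5, where the adjusted p lay between 0.124 and 0.183. It also failed with upper-quartile scaling (adjusted p = 0.0653) and with library size alone (adjusted p = 0.0970).

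The promoters of both called genes are shown from 250 bases before to 50 bases after the start of the gene, as RefSeq gives them on GRCh38.p14, with matches to the ETS motif CCGGAAG on either strand in capitals. ETS, NRF1 and YY1 factors are known regulators of nuclear respiratory genes. The ATP5MK promoter, at chr10:103396426-103396725 on the minus strand, held 3 such matches, of which the first 2 overlap. The ATP5F1A promoter, at chr18:46104178-46104477 on the minus strand, held none of the 3 motifs searched.
ATP5MK: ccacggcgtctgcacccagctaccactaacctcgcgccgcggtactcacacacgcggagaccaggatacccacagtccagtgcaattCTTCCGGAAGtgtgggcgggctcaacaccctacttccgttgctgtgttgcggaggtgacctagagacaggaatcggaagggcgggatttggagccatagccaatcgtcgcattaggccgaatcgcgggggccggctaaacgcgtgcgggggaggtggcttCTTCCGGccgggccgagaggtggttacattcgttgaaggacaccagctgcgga
ATP5F1A: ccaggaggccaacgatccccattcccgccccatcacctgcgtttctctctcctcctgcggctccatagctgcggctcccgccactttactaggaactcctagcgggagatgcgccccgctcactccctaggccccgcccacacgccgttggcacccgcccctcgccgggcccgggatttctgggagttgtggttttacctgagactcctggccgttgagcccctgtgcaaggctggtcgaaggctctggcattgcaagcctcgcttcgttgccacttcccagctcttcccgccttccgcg

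Promoters of 58 nuclear members were available. The ETS motif was found in 15 of them (25.9%), against 10.7% of 27305 promoters of all genes and 18.8% of the promoters of tested genes. The NRF1 motif, GCGCA, any base and GCGC, was found in 12 (20.7%), against 6.28% of all and 11.5% of tested genes. The YY1 motif AAGATGGC was found in 10 (17.2%), against 3.03% of all and 5.16% of tested genes. UQCR10, UQCRC1, NDUFA3 and ATP5PO were among those with an NRF1 match and differed in the sign of their fold change. A match to these letters is a description and not evidence of binding.

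Of the remaining subunits of the F1 head, ATP5F1B, the catalytic beta subunit, had 43.0, 64.4 and 138 CPM in the knockout, against 68.2, 96.0 and 79.9 CPM in WT. ATP5F1C, the rotating gamma subunit, had 45.7, 38.7 and 105 CPM in the knockout, against 113, 119 and 98.2 CPM in WT. Replicate 3 was the highest knockout library for both, and for ATP5F1C it lay within the WT range while replicates 1 and 2 lay far below it. ATP5F1C had a log2 fold change of -0.81 ± 0.37 (SE, edgeR adjusted p = 0.230), and of -1.39 with an adjusted p of 0.00256 without replicate 3. ATP5F1E, the epsilon subunit, had 26.4, 23.9 and 23.2 CPM in the knockout, against 16.8, 17.8 and 18.5 CPM in WT. It was higher in 3 of 3 knockout libraries and did not pass (log2 fold change 0.47 ± 0.13 SE, edgeR adjusted p = 0.0788). ATP5IF1, the protein that blocks ATP hydrolysis by the head, had 25.9, 26.7 and 23.5 CPM in the knockout, against 12.8, 17.0 and 17.4 CPM in WT. It too was higher in every knockout library, with an adjusted p of 0.0531 in edgeR for a log2 fold change of 0.69 ± 0.17 (SE).

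In the stalk that holds the head in place, ATP5PO had 6.44, 7.80 and 8.23 CPM in the knockout, against 4.49, 3.14 and 4.62 CPM in WT, with an edgeR adjusted p of 0.0804. ATP5PB, the long stalk subunit, had 355, 370 and 324 CPM in the knockout and 352, 393 and 370 CPM in WT, and its groups overlapped. The members of 1 complex thus lay on both sides of 0, with 11 positive and 8 negative log2 fold changes among the 19.

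The membrane ring of ATP synthase is built from a protein that ATP5MC1, ATP5MC2 and ATP5MC3 encode alike apart from the targeting sequence that is cut off. ATP5MC1 had 118, 119 and 137 CPM in the knockout and 117, 123 and 124 CPM in WT. ATP5MC2 had 19.6, 18.6 and 23.3 CPM in the knockout and 18.4, 14.0 and 18.6 CPM in WT. ATP5MC3 had 323, 343 and 427 CPM in the knockout and 419, 429 and 426 CPM in WT. ATP5MC3 was the most abundant by count, and only its knockout replicates 1 and 2 lay below WT. None passed across all libraries (edgeR adjusted p = 0.791, 0.391 and 0.288), and ATP5MC3 passed without knockout replicate 3 (log2 fold change -0.36, adjusted p = 0.00928).

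Over the last 75 codons the 3 genes encode 75 of 75 identical residues, with 88.9% identical bases between ATP5MC1 and ATP5MC2 and 81.3% between ATP5MC3 and each of the others. A stretch of 60 coding bases is shown with the 13 positions that vary in capitals (GENCODE transcripts, GRCh38). Only by such positions can a read of this stretch be assigned to 1 copy, and how reads were divided among the copies was not tested.
ATP5MC1: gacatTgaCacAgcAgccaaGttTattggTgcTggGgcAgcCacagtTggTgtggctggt
ATP5MC2: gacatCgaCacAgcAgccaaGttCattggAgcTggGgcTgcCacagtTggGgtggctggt
ATP5MC3: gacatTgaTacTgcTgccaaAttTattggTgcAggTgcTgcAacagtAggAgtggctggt

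Over all nuclear members, 24 of 69 had groups that did not overlap (34.8%), 11 higher and 13 lower in the knockout, which is close to the 33.6% of all genes tested, where 16.5% were higher and 17.1% lower. Several members depended on knockout replicate 3. The widest spread among knockout libraries, for members of at least 10 CPM, was in NDUFS3, ATP5F1B, ATP5F1C and NDUFB6. NDUFS3, a core subunit of the complex I peripheral arm, had 18.2, 7.60 and 42.7 CPM in the knockout and 22.2, 9.83 and 11.4 CPM in WT. NDUFB6, a membrane arm subunit, had 12.1, 13.6 and 26.5 CPM in the knockout and 18.9, 13.8 and 13.2 CPM in WT. In all 4 genes replicate 3 was the highest knockout library.

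Without knockout replicate 3, 8 of the 69 nuclear members were called, against 13.2% of all genes tested in that fit, and 2 of the 13 mitochondrial ones. The nuclear calls were ATP5F1E and ATP5IF1 as higher, where 5.39% of all genes were, and ATP5F1A, ATP5F1C, ATP5MC3, ATP5MK, UQCR10 and UQCRQ as lower, where 7.84% of all genes were. The mitochondrial calls were MT-ND4L and MT-ND5, both higher. DESeq2 on all libraries called 13 nuclear members, 5 higher and 8 lower, against 15.7% of all genes tested. Chromosomes differed in their median log2 fold change, which was -0.18 for chromosome 10 with ATP5MK and ATP5F1C, -0.05 for chromosome 18 with ATP5F1A and 0.31 for chromosome 20 with ATP5F1E, and the part of these shifts in the genes' values was not tested.

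Among other genes of the pathway, taken from lists by role, 11 of 174 tested were called (6.32%), 7 higher and 4 lower, which is close to the 7.84% of all genes tested and is no result about these lists. Of 10 tested subunits that the symbol rule does not reach, 0 were called in edgeR, with 2 at an unadjusted p under 0.05. SDHA, the flavoprotein of complex II, which has no mitochondrially encoded subunit, had 400, 401 and 492 CPM in the knockout, against 296, 329 and 321 CPM in WT. It was higher in every knockout library, with a log2 fold change of 0.45 ± 0.11 (SE, edgeR adjusted p = 0.0514), and passed in DESeq2 (adjusted p = 0.00974). COX4I1, the widely expressed first subunit added to complex IV from the nucleus, stood at 117 ± 17.1 CPM in the knockout and 119 ± 4.86 CPM in WT (SD, n = 3).

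Of the assembly factors, TTC19, which acts on complex III after its iron-sulfur protein is inserted, rose 2.38-fold and was 1 of 5 tested. It had 366, 355 and 452 CPM in the knockout, against 157, 163 and 173 CPM in WT, with a log2 fold change of 1.25 ± 0.12 (SE, edgeR adjusted p = 0.00371), and it passed in 6 of 6 fits with a library left out. FOXRED1, a complex I assembly factor, rose 2.28-fold (9.33 ± 1.12 CPM in the knockout, 4.09 ± 1.23 CPM in WT, SD, n = 3, edgeR adjusted p = 0.0454) as 1 of 17. COX15, which makes the haem A of complex IV, fell 1.52-fold (37.4 ± 1.32 CPM in the knockout, 57.0 ± 5.37 CPM in WT, SD, n = 3, edgeR adjusted p = 0.0293) as 1 of 21. Of 5 tested ATP synthase assembly factors 0 were called, by edgeR and with 0 at an unadjusted p under 0.05. ATPAF1 and TMEM70, the most abundant of them, had log2 fold changes of 0.22 and 0.10.

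For the expression of the mitochondrial genome itself, POLG, the DNA polymerase of mitochondria, had 136, 126 and 117 CPM in the knockout, against 180, 203 and 190 CPM in WT, a 1.51-fold fall (edgeR adjusted p = 0.0177) and the only call among 16 tested genes of mitochondrial transcription and replication. GRSF1, an RNA-binding protein of mitochondrial RNA granules, had 228, 231 and 194 CPM in the knockout, against 310, 311 and 308 CPM in WT, a 1.42-fold fall (edgeR adjusted p = 0.0241) and the only call among 20 genes of mitochondrial RNA processing. Of 68 tested mitochondrial ribosomal protein genes 5 were called (7.35%, against 7.84% of all genes tested), among them MRPL46 (1.82-fold), MRPL11 (1.60-fold) and MRPL20 (1.51-fold) as higher and MRPL43 (1.80-fold) as lower, and the summed level was 2721, 2818 and 2943 CPM in the knockout and 2881, 2911 and 2748 CPM in WT. ESRRA, a nuclear receptor that activates respiratory genes, rose 1.76-fold (37.1 ± 3.28 CPM in the knockout, 21.1 ± 1.04 CPM in WT, SD, n = 3, edgeR adjusted p = 0.0160) as 1 of 12 regulators. With 1 library left out, POLG, ESRRA and MRPL11 passed in 2 of 6 fits, COX15, GRSF1, MRPL20, MRPL43 and MRPL46 in 1 and FOXRED1 in 0.

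The mitochondrial ribosomal RNAs, MT-RNR1 and MT-RNR2, varied widely between libraries, and the part of the ribosomal RNA depletion in this was not tested. Together they had 22.8, 21.8 and 120 CPM in the knockout, against 319, 67.4 and 39.0 CPM in WT, and the 22 mitochondrial tRNAs had 0 counts in all libraries. Neither ribosomal RNA passed (edgeR adjusted p = 0.437 and 0.427), and their level showed no separation of the groups.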

How the data were processed

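Total RNA depleted of ribosomal RNA was sequenced in paired ends from 3 TOP3B knockout and 3 WT libraries, per the labels. The authors deposited 2 tables, one of estimated counts rounded to whole numbers and one of RPKM. Salmon 1.10.1 and hg19 are named in the submitters' processing notes, and neither their roles nor whether counting used strand is given in the sources used here. Of 35820 rows, 1 named differently in the 2 tables was left out. Positions are from GENCODE v29 (GRCh38).

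Genes passing filterByExpr were tested on the deposited counts with edgeR 4.0.16 in R 4.3.3 (TMM scaling, quasi-likelihood F test, Benjamini-Hochberg adjustment over 13965 genes, threshold 0.05), and fold changes are knockout over WT. The test was checked on simulated data. Library sums were compared with exact permutation tests. Alternatives were DESeq2 1.42.0, limma-voom and limma-trend on log2 RPKM (limma 3.58.1), other scalings, filters and dispersion, and leaving out each library. Floors cover counting error only. Values after ± are the SD over libraries, or the SE of the edgeR fit, which includes the spread between libraries.

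Members and lists were chosen with earlier results of these data known. Every library's value is given for mitochondrial members, called nuclear members, the 2 most abundant nuclear members per complex, isoform groups and the 4 members of at least 10 CPM with the widest knockout spread, and, chosen after their values were seen, for ATP5F1E, ATP5IF1, ATP5PO, ATP5PB, UQCR10 and SDHA. Lists gave up to 4 called genes, or the 2 most abundant. Knockout replicate numbers follow the order of deposition. The values of 1 complex I member are not reported here, although it enters the counts and sums.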

Additional observations from a re-analysis of the deposited data

How the results depend on the processing

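No paired analysis was possible because the knockout labels carry no replicate number. The number of nuclear members called was 2, and it was 13 with DESeq2, 4 with limma-trend on log2(RPKM + 1), 4 with log2(RPKM + 0.1), 1 without a filter on low counts, 4 with a filter of 1 CPM in 3 libraries, 1 with robust dispersion and 0 to 8 when 1 library was left out. The number of mitochondrial members called was 0, and it was 1 with DESeq2, 1 with library size alone and 0 to 2 when 1 library was left out. With a library left out, the median log2 fold change ran between -0.01 and 0.06 for nuclear and between -0.26 and 0.13 for mitochondrial members. The log2 difference in summed level ran between -0.31 and 0.14 for mitochondrial members, positive only without knockout replicate 3, and between -0.18 and -0.12 for nuclear members. The median level over all nuclear members, in log2(CPM + 0.5), differed by 0.30 in place of the sum; the gene at the median differs between libraries, so no member need have moved by that amount. The log2 difference in the ratio of the genomes was 0.02, and it was -0.012 with RPKM sums, -0.41 with medians, -0.025 without the most abundant member of each genome and -0.18 to 0.32 with a library left out. Over 33 members and 561 alternative values, 42 log2 fold changes had the other sign. MT-ATP8 gave 0.026 with both RPKM fits, 0.016 with upper-quartile scaling and 0.034 with library size alone, and MT-ND4 gave 0.013 with library size alone. COX5A gave -0.011 with DESeq2, -0.012 with limma-voom, -0.011 with DESeq2 size factors, -0.0077 with library sizes without mitochondrial genes and -0.00021 without a filter. COX7B gave 0.022 and 0.028 with the RPKM fits, 0.0047 with upper-quartile scaling and 0.024 with library size alone. ATP5F1B gave -0.0035 with DESeq2, -0.16 with limma-voom, -0.078 and -0.092 with the RPKM fits, -0.0037 with DESeq2 size factors and -0.0029 with library sizes without mitochondrial genes. With a library left out, ranges that crossed 0 were -0.15 to 0.079 for MT-ATP8, -0.23 to 0.15 for MT-CO1, -0.34 to 0.13 for MT-CO3, -0.33 to 0.13 for MT-CYB, -0.14 to 0.19 for MT-ND1, -0.30 to 0.13 for MT-ND2, -0.26 to 0.20 for MT-ND4, -0.084 to 0.39 for MT-ND5, -0.092 to 0.14 for COX5A, -0.15 to 0.18 for COX7B, -0.25 to 0.085 for COX7C, -0.034 to 0.084 for ATP5MC1, -0.61 to 0.32 for ATP5F1B, -0.26 to 0.39 for NDUFB6 and -0.18 to 1.09 for NDUFS3. The cause was not tested.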
